A study of Mus musculus with 8 samples.

Results

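The genes described here are 40 genes of the cell cycle and of DNA replication, measured by RNA-seq in 8 libraries of mouse liver injured by bile duct ligation, in which the duct is tied off so that bile backs up. They were chosen by name as established cell cycle genes, 20 of G1 and S phase (G1/S) and 20 of G2 phase and mitosis (G2/M). All 40 were found once each among the 53816 gene IDs of every library. The samples were 4 from mice whose genotype label reads LSEC Myc overexpression, described elsewhere in the labels as endothelial overexpression of Myc, and 4 from wild-type (WT) mice, called controls here. Each library is called a liver below, although the labels do not number the animals. Both groups had the ligation, and no unoperated liver was analysed here. The labels name neither the Cre or promoter behind the transgene nor the age, sex or time after surgery.

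Levels are in TPM, the transcript abundance scaled for gene length so that each library sums to 1000000. Aligned bases, derived from the deposited coverage and FPKM, came to 5.29 to 6.74 Gb per library. The hepatocyte markers Alb, Apoa1, Ttr, Cps1, Serpina1c and Cyp2e1 together held 63860 to 99070 TPM in the Myc-labelled libraries and 61790 to 122200 TPM in the controls, so the labelled tissue carried its defining markers. Myc itself measured 339, 356, 25.6 and 249 TPM in Myc-labelled replicates 1 to 4, against 272, 207, 554 and 89.2 TPM in control replicates 1 to 4. The groups overlapped and the lowest value lay in a library labelled Myc, so the group is called Myc-labelled throughout. In whole liver, fewer cells of a type and less RNA per cell cannot be told apart, and nothing says which cells carried these transcripts.

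A cell enters the cycle when D-type cyclins with Cdk4 and cyclin E with Cdk2 release E2F transcription factors, which switch on the genes that license and copy DNA. Later, the B-MYB and FOXM1 complexes and NF-Y switch on the genes of G2 and mitosis, whose proteins condense, attach and separate the chromosomes. In the adult liver hepatocytes are mostly quiescent, and after ligation hepatocytes, bile duct cells and other cell types can re-enter the cycle.

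The promoters of 5 members are shown first, marked with the motif letters known from cell cycle promoters. RefSeq promoter sequences (GRCm38.p6, the assembly behind mm10) were matched for 31 members, 15 of G1/S and 16 of G2/M. Windows of 250 bases before to 50 bases after the start were searched on both strands for the NF-Y box (CCAAT), the CHR element (spelled TTTGAA or otherwise TTCGAA) and an E2F core. The core was any of the spellings TTCCCGC and also TTCGCGC, together with TTGCCGC and also TTGGCGC. Printed below are 250 bases before to 30 after the start, 5′ to 3′ in the direction of the gene, with every match in capitals. Matches that overlap appear as 1 run of capitals. Ccnb2 and Cdk1 are shown as G2/M members with NF-Y boxes and CHR elements, and Ccnb1 as a G2/M member with NF-Y boxes but not these CHR letters. Cdk1 also holds 2 E2F cores, and Ccnb1 holds 1 that overlaps an NF-Y box. Mcm3 and Mcm6 are shown as G1/S members with E2F cores, and both hold NF-Y boxes too. All 5 lie on the minus strand: Ccnb2 at chr9:70421525-70421804, Cdk1 at chr10:69352883-69353162, Ccnb1 at chr13:100786457-100786736, Mcm3 at chr1:20820283-20820562 and Mcm6 at chr1:128359676-128359955.
Ccnb2: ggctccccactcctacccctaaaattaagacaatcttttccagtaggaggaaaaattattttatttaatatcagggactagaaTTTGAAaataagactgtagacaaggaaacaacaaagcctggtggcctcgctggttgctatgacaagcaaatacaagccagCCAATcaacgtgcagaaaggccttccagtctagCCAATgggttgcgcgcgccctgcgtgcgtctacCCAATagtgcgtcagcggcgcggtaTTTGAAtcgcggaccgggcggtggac
Cdk1: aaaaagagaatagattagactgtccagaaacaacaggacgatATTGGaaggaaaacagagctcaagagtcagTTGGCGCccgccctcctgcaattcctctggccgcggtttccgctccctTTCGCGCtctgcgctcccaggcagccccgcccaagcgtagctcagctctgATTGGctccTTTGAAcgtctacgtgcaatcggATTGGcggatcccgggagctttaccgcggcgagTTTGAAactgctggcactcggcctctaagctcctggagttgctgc
Ccnb1: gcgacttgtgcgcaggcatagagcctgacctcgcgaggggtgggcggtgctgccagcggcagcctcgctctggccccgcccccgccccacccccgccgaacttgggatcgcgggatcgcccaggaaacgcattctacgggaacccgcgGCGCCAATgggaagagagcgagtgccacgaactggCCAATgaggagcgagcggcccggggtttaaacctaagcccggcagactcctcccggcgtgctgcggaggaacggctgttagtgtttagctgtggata
Mcm3: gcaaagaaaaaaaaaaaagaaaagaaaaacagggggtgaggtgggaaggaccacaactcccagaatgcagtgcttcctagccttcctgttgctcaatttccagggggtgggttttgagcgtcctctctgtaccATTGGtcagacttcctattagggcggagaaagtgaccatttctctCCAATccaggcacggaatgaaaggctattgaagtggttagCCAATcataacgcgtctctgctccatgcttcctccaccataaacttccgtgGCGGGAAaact
Mcm6: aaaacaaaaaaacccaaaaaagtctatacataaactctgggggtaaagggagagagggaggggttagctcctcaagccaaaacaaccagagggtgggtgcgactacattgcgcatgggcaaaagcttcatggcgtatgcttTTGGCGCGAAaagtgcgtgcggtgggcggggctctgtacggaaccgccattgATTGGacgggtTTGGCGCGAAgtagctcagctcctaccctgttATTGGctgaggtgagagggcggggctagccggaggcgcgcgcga

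The NF-Y box was found in 14 of 16 G2/M promoters (87.5%), in 9 of 15 G1/S promoters (60%) and in 41.1% of the 27025 genes with a promoter in the table. A CHR element was found in 12 of the G2/M promoters (75%), in 2 of the G1/S promoters (13.3%) and in 21.7% of all genes. All 12 of those G2/M promoters held the NF-Y box as well, a pairing seen in 8.61% of all genes. An E2F core was found in 3 G2/M promoters (18.8%), in 9 G1/S promoters (60%) and in 10.9% of all genes. In the shorter window of 100 bases before to 50 after the start, the pairing of both elements was found in 10 G2/M promoters (62.5%), in 0 of the 15 G1/S promoters and in 2.4% of all genes. Each match is a description of letters, and the absence of a match says only that these letters are not in the window.

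**Figure D1:**
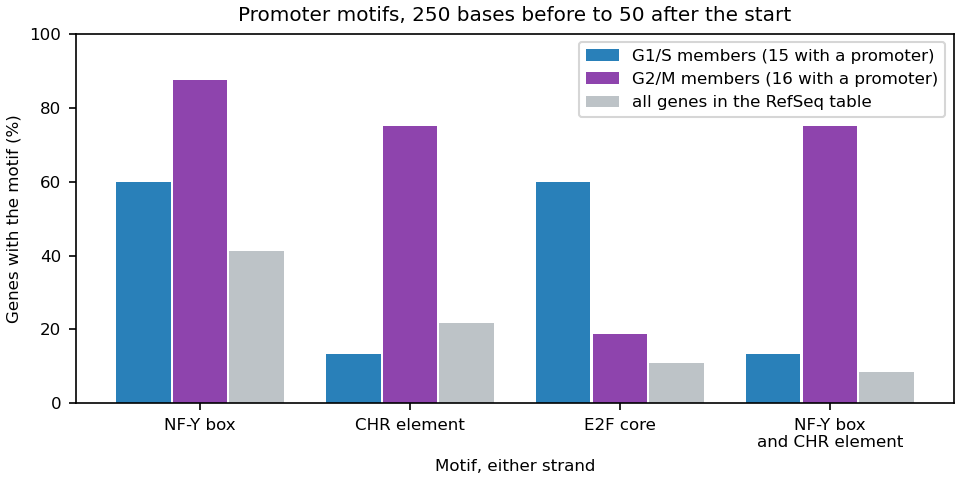
Share of genes (%, y axis) whose RefSeq promoter holds each motif (x axis), for 15 G1/S members, 16 G2/M members and all 27025 genes of the table. The CHR element stands at 75% in G2/M members and 13.3% in G1/S members, and the E2F core at 18.8% and 60%.

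Over the 8 livers the G2/M members rose and fell together and spanned a wider range than the G1/S members, and their order did not follow the genotype labels. The summed level of the 20 G2/M members was 20.2, 22.1, 8.42 and 17.3 TPM in Myc-labelled replicates 1 to 4, against 8.42, 8.07, 31.7 and 45.8 TPM in control replicates 1 to 4. Control replicates 3 and 4 were highest, and control replicates 1 and 2 and Myc-labelled replicate 3 were lowest. The highest liver thus held 5.68 times the summed level of the lowest, and 3.93 times when control replicate 4 was left out. The group means were 17.0 ± 6.06 TPM in the Myc-labelled livers and 23.5 ± 18.5 TPM in the controls (SD, n = 4 each), and the control values spanned the Myc-labelled ones.

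The summed level of the 20 G1/S members was 183, 139, 104 and 166 TPM in Myc-labelled replicates 1 to 4, against 121, 106, 177 and 150 TPM in control replicates 1 to 4. The highest liver held 1.76 times the lowest, and the groups overlapped, at 148 ± 34.4 TPM in the Myc-labelled livers and 139 ± 31.5 TPM in the controls (SD, n = 4 each). Cyclin D genes, Cdk2 and Cdk4 are also transcribed outside S phase, and without Ccnd1, Ccnd2, Cdk2 and Cdk4 the sum ran between 66.0 and 103 TPM. The ratio of the G1/S sum to the G2/M sum was 9.03, 6.28, 12.3 and 9.62 in Myc-labelled replicates 1 to 4, against 14.4, 13.2, 5.60 and 3.27 in control replicates 1 to 4. It was therefore lowest in the 2 controls with the most G2/M transcripts and highest in the 2 controls with the fewest. The G2/M sum, which varied more, is its denominator, so this order largely restates the G2/M sums.

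**Figure D2:**
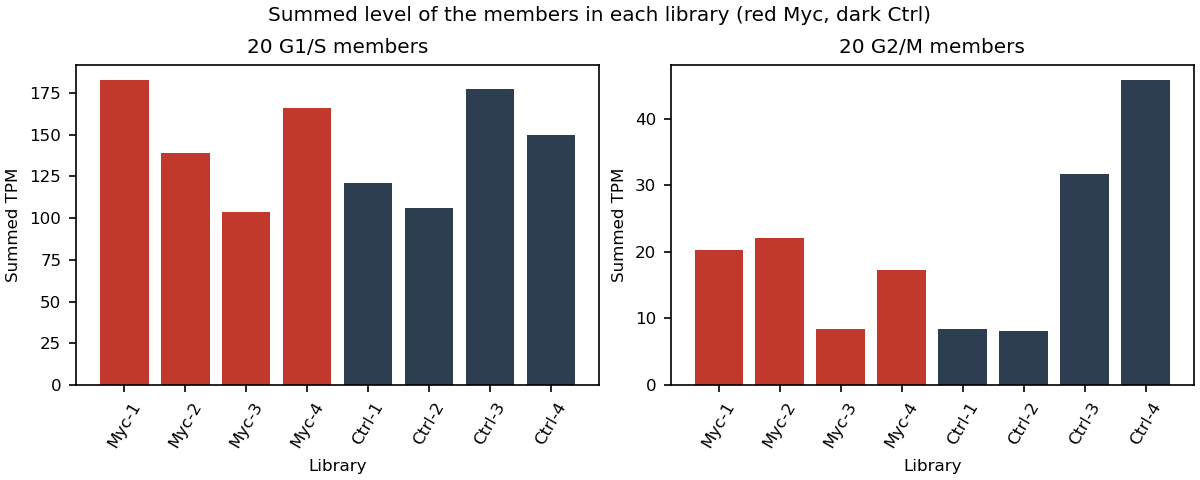
Summed TPM (y axis) of the 20 G1/S members (left) and the 20 G2/M members (right) in each library (x axis), 1 bar per liver. G2/M sums run between 8.07 and 45.8 TPM and G1/S sums between 104 and 183 TPM, with both extremes of the G2/M sums among the controls.

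To give each gene equal weight, log2(TPM + 1) was centred on the gene's mean over the 8 libraries and averaged over the members of a phase. This G2/M score was 0.062, 0.14, -0.40 and -0.065 in Myc-labelled replicates 1 to 4, against -0.44, -0.42, 0.39 and 0.74 in control replicates 1 to 4. The G1/S score was 0.22, 0.0087, -0.28 and 0.19 in the Myc-labelled livers, against -0.27, -0.28, 0.21 and 0.20 in the controls. In 7 of the 8 livers both scores had the same sign, Myc-labelled replicate 4 being the exception. Myc-labelled replicate 3 and control replicates 1 and 2 sat close together at the low end of both scores, apart from the other 5 livers, so no pooled correlation of the scores is given. Among those 5 livers the G1/S score spanned 0.0087 to 0.22 while the G2/M score spanned -0.065 to 0.74. With median-of-ratios scaling the G1/S score of Myc-labelled replicate 1 was 0.0087 and that of Myc-labelled replicate 3 was -0.12, so the G1/S order depends on the scaling, and Myc-labelled replicate 1 then also had scores of opposite sign.

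**Figure D3:**
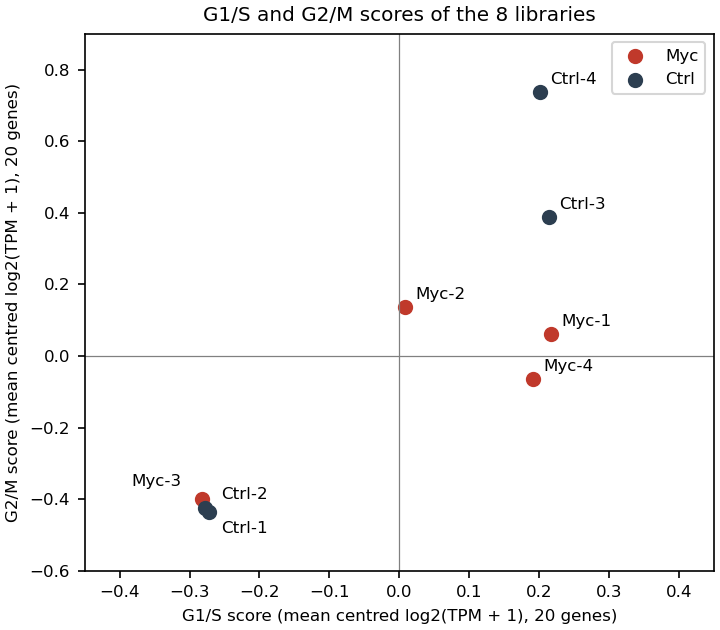
G1/S score (x axis) against G2/M score (y axis), each the mean centred log2(TPM + 1) of 20 genes, 1 point per library, red for Myc-labelled and dark for control. Myc-labelled replicate 3 and control replicates 1 and 2 lie together at G2/M scores of -0.40 to -0.44, and control replicates 3 and 4 stand highest at 0.39 and 0.74.

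This order is built from the 20 G2/M genes themselves, and the single genes shared it to differing degrees. In 18 of the 20 G2/M members control replicate 4 was the highest of the 8 libraries, Aurka being highest in Myc-labelled replicate 2 and Cdc20 in control replicate 3. Control replicates 3 and 4 were the top 2 libraries in 12 G2/M members and in 1 G1/S member. Myc-labelled replicate 3 and control replicates 1 and 2 were the lowest 3 libraries in 12 G2/M members and in 3 G1/S members. Across the 8 libraries the median Pearson r of log2(TPM + 1) was 0.85 over the 190 pairs of G2/M members, 0.40 over the 190 pairs of G1/S members and 0.45 over the 400 pairs that join the phases. Over all pairs of the 13055 tested genes, which averaged at least 1 TPM, it was 0.19. These values are descriptions, since the pairs share the 8 libraries. Leaving out control replicate 4 gave a median of 0.77 within G2/M and 0.45 within G1/S.

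The spread within a group also differed by phase. The SD of log2(TPM + 1) was larger in the controls than in the Myc-labelled livers in 20 of 20 G2/M members and in 8 of 20 G1/S members, against 40.1% of the 13055 tested genes. The median SD of the G2/M members was 0.27 in the Myc-labelled livers and 0.66 in the controls, and that of the G1/S members was 0.32 in the Myc-labelled livers and 0.27 in the controls. Leaving out control replicate 4 left 16 of the 20 G2/M members with the larger SD in the controls. The G2/M members move together, so the 20 are not independent of each other, and the difference in spread was not tested.

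**Figure D4:**
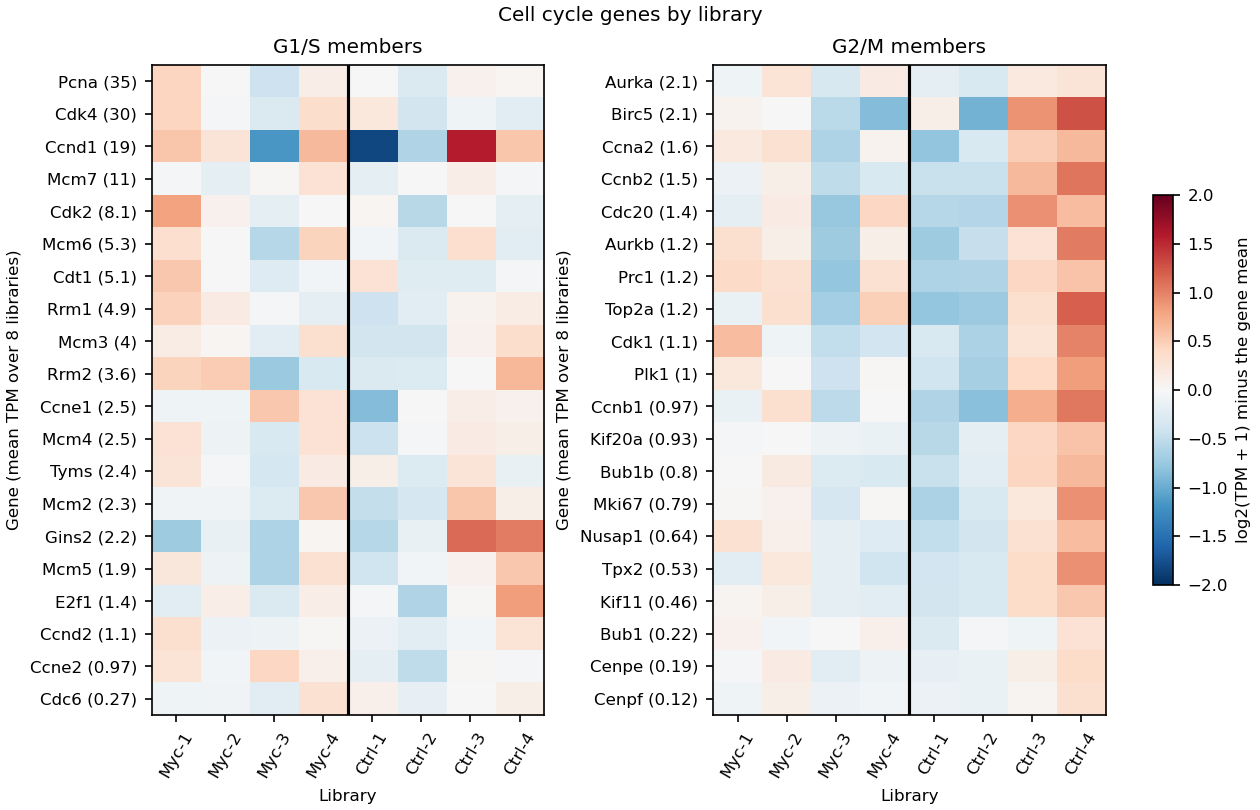
Centred log2(TPM + 1) (colour) of each member (rows, ordered by mean TPM over 8 libraries, given in parentheses) in each library (columns, Myc-labelled left of the line, controls right). G2/M members share a pattern that is highest in control replicate 4 for 18 of 20 genes, while the G1/S members vary by gene.

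Among the G1 regulators, Ccnd1 (chromosome 7, 144929931 to 144939925, mm10), cyclin D1, which partners Cdk4 and is a marker of hepatocyte cycle entry, measured 23.0, 18.5, 6.23 and 24.5 TPM in Myc-labelled replicates 1 to 4. In control replicates 1 to 4 it measured 3.62, 9.75, 47.3 and 22.8 TPM. It spanned 13.1-fold over the 8 livers, the widest range of the G1/S members, with both extremes in the controls. Its log2 difference, Myc-labelled minus control on the log2(TPM + 1) scale, was 0.15 ± 0.76 (SE), with a 95% interval of -1.62 to 1.92. Ccnd1 overlaps LTO1 on the opposite strand, at 7.10 to 9.89 TPM, above the lowest Ccnd1 values. Ccnd2, cyclin D2, stayed between 0.771 and 1.57 TPM.

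Cdk4, the kinase partner of D cyclins (chromosome 10, 127063534 to 127067920), measured 40.2, 28.7, 24.0 and 38.0 TPM in the Myc-labelled livers, against 34.5, 22.6, 27.8 and 25.3 TPM in the controls. The ranges overlapped (log2 difference 0.23 ± 0.20, 95% interval -0.22 to 0.67), and without Myc-labelled replicate 1 the difference was 0.12. Cdk4 overlaps Tspan31 on the opposite strand, at 86.6 to 188 TPM, and the strand setting of the counting is not stated. Cdk2, the kinase of S phase entry (chromosome 10, 128697939 to 128705031), measured 14.3, 8.34, 6.78 and 7.78 TPM in the Myc-labelled livers, against 8.06, 4.98, 7.81 and 6.71 TPM in the controls. Myc-labelled replicate 1 stood above the rest, and the other 3 Myc-labelled values lay within or near the control range (log2 difference 0.35 ± 0.23, 95% interval -0.16 to 0.86), and without Myc-labelled replicate 1 the difference was 0.14.

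Ccne1, cyclin E1, which activates Cdk2 (chromosome 7, 38097984 to 38107534), measured 2.24, 2.22, 3.98 and 3.21 TPM in the Myc-labelled livers, against 0.881, 2.40, 2.76 and 2.64 TPM in the controls. It was highest in Myc-labelled replicate 3, the library with the lowest summed G1/S level (log2 difference 0.33 ± 0.26, 95% interval -0.25 to 0.91). The difference was 0.096 without control replicate 1 and 0.06 with array weights. Ccne2, cyclin E2, was also highest in that library, at 1.34, 0.856, 1.57 and 1.07 TPM in the Myc-labelled livers, against 0.685, 0.36, 0.971 and 0.897 TPM in the controls. Its mean of 0.97 TPM kept it out of the test across genes, and an exact two-sided permutation test over 70 assignments gave p = 0.0857, unadjusted, where the smallest possible is 0.0286. Ccne2 overlaps Ints8 on the opposite strand, at 6.27 to 8.21 TPM. E2f1, an activating E2F factor, ranged from 0.886 to 1.51 TPM in the Myc-labelled livers and from 0.509 to 3.11 TPM in the controls.

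Among the licensing and replication genes, Pcna, the sliding clamp of DNA polymerases (chromosome 2, 132249162 to 132253314), measured 46.3, 34.1, 25.4 and 37.5 TPM in the Myc-labelled livers, against 34.2, 27.8, 36.3 and 35.2 TPM in the controls. Both ends of its 1.82-fold range were Myc-labelled (log2 difference 0.08 ± 0.19, 95% interval -0.35 to 0.50). The 6 Mcm genes, which encode the replicative helicase ring, ranged in mean level from 1.86 TPM for Mcm5 to 10.5 TPM for Mcm7. Their highest library held between 1.45 times (Mcm7) and 3.70 times (Mcm5) the lowest. Mcm7 overlaps Cops6 and Ap4m1 on the opposite strand. Mcm3 followed the average of the other G1/S members most closely, with a Pearson r of 0.92 over the 8 livers.

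Gins2, a subunit of the GINS helicase cofactor (chromosome 8, 120578633 to 120589304), measured 0.743, 1.55, 0.848 and 1.92 TPM in the Myc-labelled livers, against 0.906, 1.55, 5.25 and 4.8 TPM in the controls. Control replicates 3 and 4 stood apart from the other 6 livers. Gins2 had the smallest unadjusted p of the 18 G1/S members in the limma fit (log2 difference -0.72 ± 0.38, 95% interval -1.57 to 0.13, limma unadjusted p = 0.0889), and the difference was -0.46 without control replicate 3. It followed the G2/M members (r = 0.80) more closely than the other G1/S members (r = 0.45), as did E2f1 (0.82 against 0.53) and Rrm2 (0.78 against 0.59). The reverse was seen too, as Prc1 (0.97 against 0.87) and Cdc20 (0.86 against 0.85) followed the G1/S members more closely than the other G2/M members. Gins2 overlaps Gse1 on the opposite strand, at 2.21 to 8.48 TPM. The licensing factors Cdt1 and Cdc6 averaged 5.10 and 0.268 TPM over the 8 livers. Of the nucleotide enzymes, the ribonucleotide reductase genes Rrm1 and Rrm2 ranged from 3.39 to 7.01 TPM and from 1.60 to 5.93 TPM. Tyms, thymidylate synthase, ranged from 1.58 to 2.98 TPM.

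Among the S and G2 genes, Mki67 encodes the proliferation marker Ki-67 (chromosome 7, 135689784 to 135716361) and measured 0.729, 0.806, 0.354 and 0.734 TPM in the Myc-labelled livers. In control replicates 1 to 4 it measured 0.103, 0.38, 0.976 and 2.21 TPM, so the controls bracketed every Myc-labelled value. Its highest liver held 21.5 times the lowest, at a mean coverage of 0.32 to 6.52 aligned bases per base of the gene, and the group difference was -0.10 on the log2 scale (exact permutation p = 0.80, two-sided). Top2a, the topoisomerase that untangles replicated chromosomes (chromosome 11, 98992943 to 99024189), measured 0.826, 1.5, 0.249 and 1.79 TPM in the Myc-labelled livers, against 0.164, 0.213, 1.48 and 3.56 TPM in the controls. The controls again held both extremes, and the group difference was near 0 (log2 difference -0.0024 ± 0.44, 95% interval -0.98 to 0.98).

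Ccna2, cyclin A2, which acts with Cdk2 and Cdk1 (chromosome 3, 36564865 to 36572150), measured 1.83, 2.07, 0.624 and 1.59 TPM in the Myc-labelled livers, against 0.434, 1.01, 2.50 and 2.87 TPM in the controls. It ran in the same order as Mki67 at its ends, with control replicate 1 lowest and control replicate 4 highest (log2 difference -0.02 ± 0.34, 95% interval -0.77 to 0.73). Ccna2 overlaps Exosc9 on the opposite strand, at 13.4 to 20.2 TPM.

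Cdk1, the kinase that drives mitotic entry with its B cyclins (chromosome 10, 69335146 to 69352938), whose promoter is printed above, measured 2.07, 0.877, 0.426 and 0.527 TPM in the Myc-labelled livers, against 0.615, 0.291, 1.42 and 2.97 TPM in the controls. Control replicate 4 and Myc-labelled replicate 1 stood highest and control replicate 2 lowest (log2 difference -0.17 ± 0.37, 95% interval -0.98 to 0.64). Ccnb2, cyclin B2 (chromosome 9, 70407692 to 70421547), measured 1.17, 1.56, 0.656 and 0.903 TPM in the Myc-labelled livers, against 0.729, 0.726, 2.68 and 3.93 TPM in the controls. Control replicates 3 and 4 lay above all other livers (log2 difference -0.41 ± 0.35, 95% interval -1.18 to 0.36), and without control replicate 4 the difference was -0.12. A pseudogene copy, Ccnb2-ps, was listed at 0.0357 to 0.985 TPM, and reads shared between the copies make the Ccnb2 level less certain.

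Ccnb1, cyclin B1, measured 0.636, 1.23, 0.239 and 0.782 TPM in the Myc-labelled livers, against 0.177, 0, 1.96 and 2.71 TPM in the controls, where 0 is the listed value of control replicate 2. It followed the other G2/M members most closely of all 20, with r = 0.97. Of the 3 G2/M promoters printed above, its own lacks the CHR letters. Bub1 was likewise listed at 0 in control replicate 1 and Cenpe at 0 in Myc-labelled replicate 3.

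Among the genes of chromosome segregation and exit, Birc5 encodes survivin of the chromosomal passenger complex (chromosome 11, 117849251 to 117855743). It measured 1.80, 1.69, 0.84 and 0.474 TPM in the Myc-labelled livers, against 1.92, 0.401, 3.98 and 5.46 TPM in the controls. Control replicates 3 and 4 stood highest and control replicate 2 lowest, so the lower Myc-labelled mean of 1.20 ± 0.649 TPM, against 2.94 ± 2.23 TPM in the controls (SD, n = 4 each), lay within their spread. Birc5 had the smallest unadjusted p of the 10 G2/M members in the limma fit (log2 difference -0.67 ± 0.44, 95% interval -1.65 to 0.31, limma unadjusted p = 0.158). Its difference was -0.36 without control replicate 4 and -1.10 without control replicate 2. Cdc20, the activator of the anaphase-promoting complex (chromosome 4, 118432901 to 118437352), measured 0.942, 1.47, 0.309 and 1.95 TPM in the Myc-labelled livers, against 0.491, 0.477, 3.15 and 2.39 TPM in the controls. Control replicates 3 and 4 again stood highest (log2 difference -0.19 ± 0.39, 95% interval -1.05 to 0.67). Cdc20 overlaps Elovl1 on the opposite strand, at 50.4 to 74.9 TPM.

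Aurka, Aurora kinase A of the spindle poles (chromosome 2, 172356190 to 172370535), had the highest mean of the G2/M members and the narrowest range. It measured 1.86, 2.69, 1.44 and 2.41 TPM in the Myc-labelled livers, against 1.68, 1.46, 2.48 and 2.64 TPM in the controls. The groups overlapped (log2 difference 0.02 ± 0.22, 95% interval -0.47 to 0.50), and the highest liver held 1.87 times the lowest. Aurkb, Aurora kinase B of the passenger complex, spanned 12.6-fold over the 8 livers, and Plk1, Polo-like kinase 1, spanned 10.8-fold. The spindle and cytokinesis genes Kif11, Prc1 and Nusap1 spanned 10.5-fold, 9.44-fold and 10.7-fold, and Tpx2, a spindle assembly factor, 16-fold. Their lowest coverage was 0.207, 0.251, 0.36 and 0.289 in the same order, so these folds rest on few aligned bases. The checkpoint kinase gene Bub1b and the mitotic kinesin gene Kif20a spanned 6.31-fold and 6.29-fold. On the opposite strand Kif20a overlaps Cdc23, at 5.73 to 8.60 TPM, Prc1 overlaps Rccd1, at 1.67 to 3.01 TPM, and Nusap1 overlaps Oip5, at 0.318 to 0.861 TPM. Cenpf, a kinetochore gene, averaged 0.122 TPM, the lowest of the 40 members, and its 22.6-fold range rested on a coverage of 0.0389 to 0.751.

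The comparison of genotypes asked whether endothelial Myc changed these genes in the ligated liver. The 28 members with a mean of at least 1 TPM, 18 of G1/S and 10 of G2/M, were tested in 1 limma fit over 13055 genes. With limma, 0 of the 28 passed an adjusted p of 0.05 in either direction, where 0% of all tested genes passed, and the lowest adjusted p of a member was 0.9998. At an unadjusted p under 0.05 limma also found 0 members, against 1.86% of all tested genes (1.26% higher and 0.597% lower in the Myc-labelled livers). The Myc-labelled and control values overlapped in all 40 members, while they did not overlap in 1.26% of tested genes (0.935% higher and 0.322% lower in the Myc-labelled livers). With array weights limma called 1 gene among all tested and 0 members, and no other setting called a member.

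The log2 difference was above 0 in 15 of 20 G1/S members and in 3 of 20 G2/M members, where 58% of all tested genes were above 0 and 42% below. The median was 0.08 for the G1/S members and -0.10 for the G2/M members, against 0.037 for all tested genes. Both medians were smaller than the spread of the scores between livers of a group. Without control replicate 4 the G2/M median was 0.12, and 17 of the 40 members changed sign. The 10 G2/M and 2 G1/S members under the filter were not tested in the fit, and the intervals of the tested G2/M members reached from -1.65 to 0.98, so differences within those bounds could not be told from 0 with 4 livers a group.

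**Figure D5:**
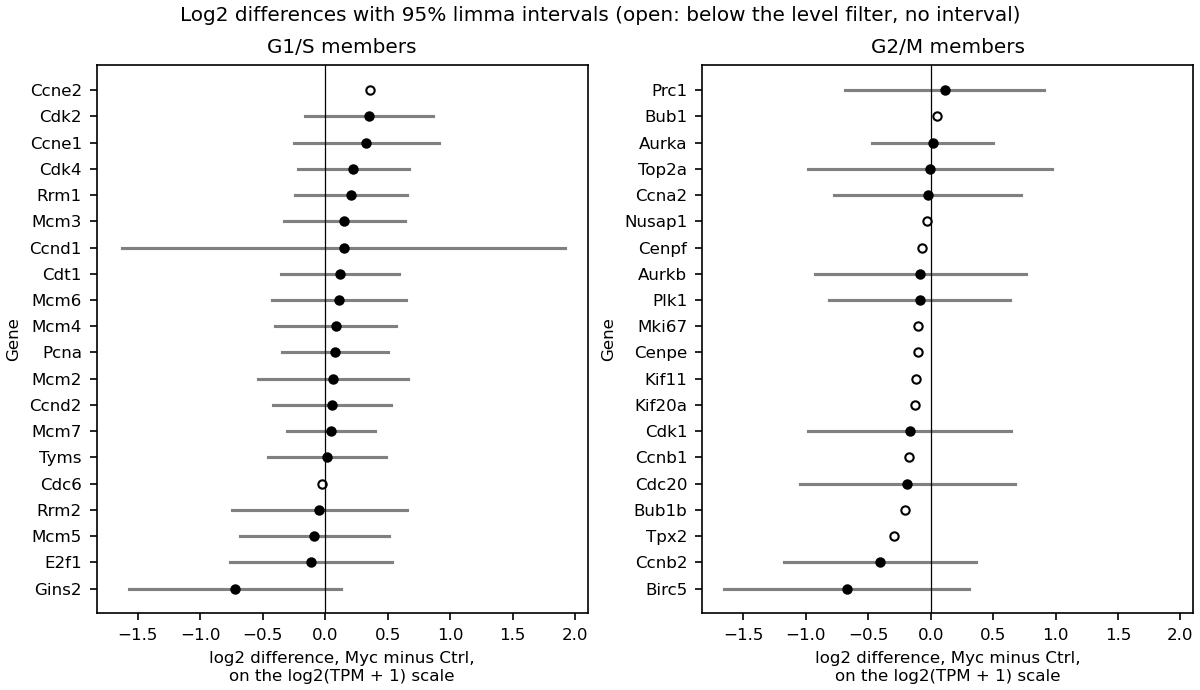
Log2 difference, Myc-labelled minus control, on the log2(TPM + 1) scale (x axis) for each member (y axis), with 95% limma intervals for the 28 tested members. Open points are the 12 members below the level filter, and every interval drawn includes 0.

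The other genes of the pathway were taken from 4 lists, with 8, 11, 28 and 20 genes tested. At a limma adjusted p of 0.05, 0 of them passed in either direction, where 0% of all tested genes passed. At a limma unadjusted p under 0.05 there was 1 gene, against 1.86% of all tested genes. That gene was Mad2l1, a spindle checkpoint gene, named after its values were seen. It measured 2.35, 1.19, 1.11 and 0.977 TPM in the Myc-labelled livers, against 2.11, 1.70, 2.90 and 3.26 TPM in the controls. Only Myc-labelled replicate 1 reached the control range (log2 difference -0.55 ± 0.24, limma unadjusted p = 0.0442, adjusted p = 0.9998). Other mitosis genes, 36 in all and 20 of them tested, had a median log2 difference of -0.05 and scores of 0.14, 0.12, -0.28 and -0.093 in Myc-labelled replicates 1 to 4, against -0.24, -0.27, 0.22 and 0.39 in control replicates 1 to 4. By this score the same 2 livers stood highest and the same 3 lowest as for the G2/M members. The summed level ran otherwise, with control replicate 4 and Myc-labelled replicate 1 highest at 161.2 and 150.5 TPM, ahead of control replicate 3 at 139.5 TPM. In that sum Myc-labelled replicate 4, at 114.5 TPM, also lay below control replicate 1, at 123.9 TPM. Of these genes, Cks2, a Cdk subunit, measured 30.04, 22.8, 12.3 and 20.1 TPM in the Myc-labelled livers, against 30.6, 15.8, 25.3 and 26.9 TPM in the controls, and the groups overlapped (log2 difference -0.23 ± 0.27). Bub3, a spindle checkpoint gene, stood at 19.98 ± 3.78 TPM in the Myc-labelled livers and 18.0 ± 0.646 TPM in the controls (SD, n = 4 each; log2 difference 0.12 ± 0.16).

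Other replication genes, 34 in all and 28 tested, had a median log2 difference of 0.01. Rpa2, a subunit of the single-strand binding protein RPA, stood at 7 ± 1.37 TPM in the Myc-labelled livers and 5.17 ± 0.638 TPM in the controls (log2 difference 0.36 ± 0.18). Rfc3, a subunit of the clamp loader, stood at 7.33 ± 1.22 TPM in the Myc-labelled livers and 5.47 ± 1.34 TPM in the controls (log2 difference 0.38 ± 0.20). Neither passed the test. The scores of this list stayed between -0.21 and 0.14, with Myc-labelled replicate 3 lowest and Myc-labelled replicate 1 highest.

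The E2F, DREAM and FOXM1 regulators, 16 genes of which 11 were tested, had a median log2 difference of 0.096. E2f3, an activating E2F factor, measured 5.14, 4.37, 4.32 and 4.46 TPM in the Myc-labelled livers, against 2.35, 3.52, 3.74 and 3.69 TPM in the controls. It was the only gene of all 4 lists, of 10, 16, 34 and 36 genes, whose groups did not overlap, against 1.26% of all tested genes. E2f3 did not pass over all genes (log2 difference 0.38 ± 0.18, limma unadjusted p = 0.0622, adjusted p = 0.9998). Lin54, the DNA-binding subunit of DREAM that recognises CHR elements, stood at 3.72 ± 0.585 TPM in the Myc-labelled livers and 2.90 ± 0.43 TPM in the controls (log2 difference 0.27 ± 0.18).

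The CDK inhibitors and pocket proteins, 10 genes of which 8 were tested, had a median log2 difference of 0.05. Cdkn1a, the inhibitor p21, was the most abundant of them and measured 137, 70.5, 73.7 and 144 TPM in the Myc-labelled livers, against 96.8, 122, 69.98 and 62.6 TPM in the controls. The 2 controls with the most G2/M transcripts held less of it than the 2 with the fewest, but the Myc-labelled livers showed no such order (log2 difference 0.25 ± 0.30). Rbl2, the pocket protein p130 of quiescent cells, stood at 13.1 ± 2.73 TPM in the Myc-labelled livers and 15.04 ± 1.53 TPM in the controls (log2 difference -0.20 ± 0.18).

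Markers of cell types that could cycle varied between the same livers, each list having 6 genes, or 5 for the erythroid list, all found. The cholangiocyte markers summed to 439, 274, 117 and 967 TPM in Myc-labelled replicates 1 to 4, against 154, 97.5, 319 and 199 TPM in control replicates 1 to 4, and the 3 livers with low scores of both phases were also the 3 lowest here. The stellate and myofibroblast markers summed to 111, 47.8, 18.6 and 36.5 TPM in the Myc-labelled livers, against 24.8, 15.6, 34.9 and 50.6 TPM in the controls, with the same 3 livers lowest. Neither list was highest in control replicate 4. The erythroid markers summed to 216, 414, 325 and 408 TPM in the Myc-labelled livers, against 494, 218, 161 and 103 TPM in the controls, with Slc4a1 at 0 in some libraries. They were lowest in control replicates 3 and 4, the livers with the highest G2/M sums, and highest in control replicate 1, one of those with the lowest. Other lists are given by their summed range. Recruited monocyte markers ranged from 217 to 1398 TPM in the Myc-labelled livers and from 295 to 549 TPM in the controls. By this sum their lowest 3 livers were Myc-labelled replicate 3 and control replicates 1 and 2, at 217, 295 and 333 TPM. With each gene given equal weight the lowest 3 differed, control replicate 3 scoring -0.39 and control replicate 2 -0.10. Spp1 was in both this list and the cholangiocyte list. Kupffer cell markers ranged from 364 to 657 TPM in the Myc-labelled livers and from 389 to 1158 TPM in the controls, and neutrophil markers from 24.0 to 149 TPM in the Myc-labelled livers and from 13.5 to 66.8 TPM in the controls. Sinusoidal endothelial markers ranged from 78.6 to 143 TPM in the Myc-labelled livers and from 106 to 164 TPM in the controls, and pan-endothelial markers from 59.2 to 101 TPM in the Myc-labelled livers and from 65.8 to 94.2 TPM in the controls. Lymphocyte markers were near 0, with T and NK markers at 1.30 to 3.24 TPM in the Myc-labelled livers and 0.578 to 4.39 TPM in the controls, and Cd3e, Cd3g, Trac, Cd8a and Nkg7 each at 0 in at least 1 library. B and plasma cell markers summed to 1.85 to 6.49 TPM in the Myc-labelled livers and 1.27 to 5.54 TPM in the controls, with Cd79a and Ms4a1 at 0 in some libraries. The part of these cells in the cell cycle differences was not tested.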

How the data were processed

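RNA-seq of 8 ligated livers was used, 4 labelled as overexpressing Myc in endothelial cells and 4 wild-type, grouped by sample title. Total RNA was made into libraries by use of an mRNA kit, per the labels' protocols. The submitters' processing notes name HISAT2, StringTie and the mm10 build, without versions, and no source used here states the strand setting. TPM was deposited by the authors and is the main unit. FPKM and coverage (a signal of mean aligned bases per base, not scaled for depth) were also deposited by the authors. Read counts were not among the columns used, so no counting interval is given. Gene IDs on repeated rows, 10 to 15 in a library, had their values summed, and none was a member.

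Differences (Myc-labelled minus control) were tested with limma 3.58.1 in R 4.3.3 on the log2(TPM + 1) scale, trended and robust, two-sided, over 13055 genes that averaged 1 TPM or more. P-values were adjusted by Benjamini-Hochberg and called at 0.05. This scale understates changes of low genes. The fit was tested on simulated data. Single members under the filter were compared by exact permutation. The labels do not number the animals or say that each replicate was a separate one, so p-values measure the spread between these samples. Other computations used Python 3.11.15, pandas 2.3.3, numpy 2.4.6 and scipy 1.17.1. Motifs were searched in RefSeq promoters of GRCm38.p6.

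Values in every library are given, in each phase, for the 4 members with the smallest unadjusted p, the 3 with the highest mean and Mki67, Ccnd1, Pcna, Top2a, Cdk1, Ccne1 and Birc5, plus Ccne2 and Ccnb1, which, like Mad2l1 from the other lists, were added after their values were seen. From each other list the 2 genes with the smallest p and a mean of at least 2 TPM were taken. The members and lists were chosen with earlier results of these data known. Alternatives changed the pseudocount, filter, scaling and unit, dropped the trend and robust options, weighted libraries, added a replicate block, and omitted each library in turn. One marker gene is not reported here and was left out of its list.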

Additional observations from a re-analysis of the deposited data

Results flagged for a closer look

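Prc1, a gene of the central spindle, stood out in 1 library among those of its group. It measured 0.225 TPM in Myc-labelled replicate 3, against 1.57 to 1.74 TPM in the other 3 Myc-labelled livers, a gap of 0.89 of the group's range. It was the only one of 88 groups of 4 values (40 members, 2 scores and 2 sums, in each group) past Dixon's 95% limit, and chance alone flags about 1 in 20 groups. Prc1 was also low in control replicates 1 and 2, at 0.361 and 0.377 TPM, against 1.80 and 2.12 TPM in control replicates 3 and 4.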

How the results depend on the processing

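No member was called in any setting, and the lowest adjusted p of a member was 0.896. The count of genes called was 1 with array weights and 0 in the other settings. Deviations of same-numbered livers correlated at 0.13, -0.058, 0.065 and 0.07, and those of differently numbered livers at -0.21 to 0.22. These values cannot show whether the replicate numbers pair the livers. With the replicate block 0 genes were called. The sign of the log2 difference held in all settings for 11 of the 40 members. With a pseudocount of 0.1 it was 0.058 for Mki67, 0.26 for Top2a and 0.043 for Ccna2. Aurka had -0.014 with median-of-ratios scaling and -0.035 with quantile normalization, and Ccnd1 -0.12 with array weights. The causes were not tested. Leaving out each library gave ranges of -0.43 to 0.70 for Ccnd1, -0.053 to 0.23 for Pcna, -0.26 to 0.39 for Top2a, -0.29 to 0.19 for Ccna2, -0.41 to 0.086 for Cdc20, -0.41 to 0.13 for Cdk1, -0.32 to 0.19 for Mki67, -0.082 to 0.13 for Aurka and -0.42 to 0.0009 for Cks2. Among the other pathway genes named, the ranges were -0.27 to -0.051 for Rbl2, 0.074 to 0.42 for Cdkn1a, 0.044 to 0.23 for Bub3 and -0.72 to -0.44 for Mad2l1. The G2/M median ranged from -0.29 to 0.12 and the G1/S median from 0.0019 to 0.20. No G2/M median could be had at a mean of at least 5 TPM, which 0 G2/M members reached. The leave-one-library ranges of spread, pairwise r and summed levels were chosen after seeing the data.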

Other observations

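Aligned bases were 5.29, 6.74, 6.14 and 6.04 Gb in Myc-labelled replicates 1 to 4, against 5.78, 6.16, 6.19 and 5.86 Gb in control replicates 1 to 4.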
